A study of Mus musculus with 24 samples.

Results

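The comparison described here is between RNAs captured for a non-canonical cap and all capped RNAs in liver of 18 month old male C57BL/6 mice. It rests on 6 of the 24 libraries of the series, 3 in which every capped RNA was captured (all-capped) and 3 in which RNAs with a non-canonical initiating nucleotide were captured (captured), all from polyA RNA. Every mouse gene was a candidate: 13124 of 55416 had enough counts to be tested. The 6 matching libraries from 2 month old male mice of the same strain shared the model and were used as a second age. The labels name no treatment or genotype and do not say whether the 3 libraries of a group came from separate animals, so the p-values measure the spread between these libraries, which may be technical.

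Most RNAs made by RNA polymerase II begin with a 7-methylguanosine cap. A small share begins instead with a metabolite such as NAD, FAD or dephospho-coenzyme A, which the polymerase can use as the first nucleotide because each contains an adenosine. Decapping enzymes, among them DXO and several Nudix hydrolases, remove such caps, and mitochondrial transcripts, which carry no 7-methylguanosine cap, are known to be NAD-capped. Liver makes most plasma proteins, clears drugs, and keeps large pools of NAD and coenzyme A. A higher value in the captured libraries means a larger share of the captured RNA, not a higher expression of the gene, and values from whole liver cannot tell fewer cells of a type from less RNA per cell.

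The all-capped libraries held between 19009403 and 20483399 counts, of which 15413207 to 17914322 were on mouse genes. Captured replicate 1 was the shallowest library, with 10995383 counts against 21418751 and 18787965 in captured replicates 2 and 3. Its mouse-gene total was 6390015, against 10497897 and 12229906, and it detected 15595 mouse genes against 17541 and 17078. Fly RNA, whose purpose the labels do not give, took 14.4% ± 3.86 (SD, n = 3) of all counts in the all-capped group and 42.6% ± 8.06 (SD, n = 3) in the captured group. No pair of replicates agreed within sampling noise, with a chi-square per degree of freedom between 16.1 and 65.6. The values of genes below are normalized CPM, mouse-gene counts relative to the TMM-scaled library total, and are not corrected for transcript length. Shares of mouse counts, and the spike-in ratios formed from them, use the total without TMM scaling. Without TMM the median log2 fold change of all genes was 0.99, against 0.19 with it. Shares therefore lie further towards captured RNA than the fold changes beside them.

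In captured RNA, 4365 genes were higher and 3968 were lower than in all-capped RNA (edgeR quasi-likelihood test, Benjamini-Hochberg adjusted p under 0.05). These are 33.3% and 30.2% of the genes tested, the background against which each gene list below is to be read. The change was at least 2-fold for 3945 of the higher and 3397 of the lower genes, and at least 8-fold for 579 and 604. In 4151 of the higher and 3833 of the lower genes the 3 captured libraries did not overlap the 3 all-capped ones. The median gene had a log2 fold change of 0.19, with the middle 50% of genes between -1.25 and 1.61. Without captured replicate 1 the counts were 4188 and 3770, and with every library thinned to the mouse-gene total of that library they were 4243 and 3551.

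Directions are relative to the other mouse genes, since the counts alone do not fix a zero. The higher genes made up 52.4% of those called with TMM, 72.7% with library size alone, 98.5% when scaled to the summed spike-ins, 99.9% when scaled to the fully m7G-capped spike-in, and 13.9% when scaled to fly genes. These scalings moved the median log2 fold change of all genes to 0.99, 2.93, 3.95 and -1.18. Of 150 called lower genes examined singly, 9, 87, 129 and 0 turned to a positive sign under the respective scalings, and of 111 called higher genes 16 turned negative with fly scaling and none with the other 3. Each list below is therefore described by its counts and by its median beside the median of all genes.

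**Figure D1:**
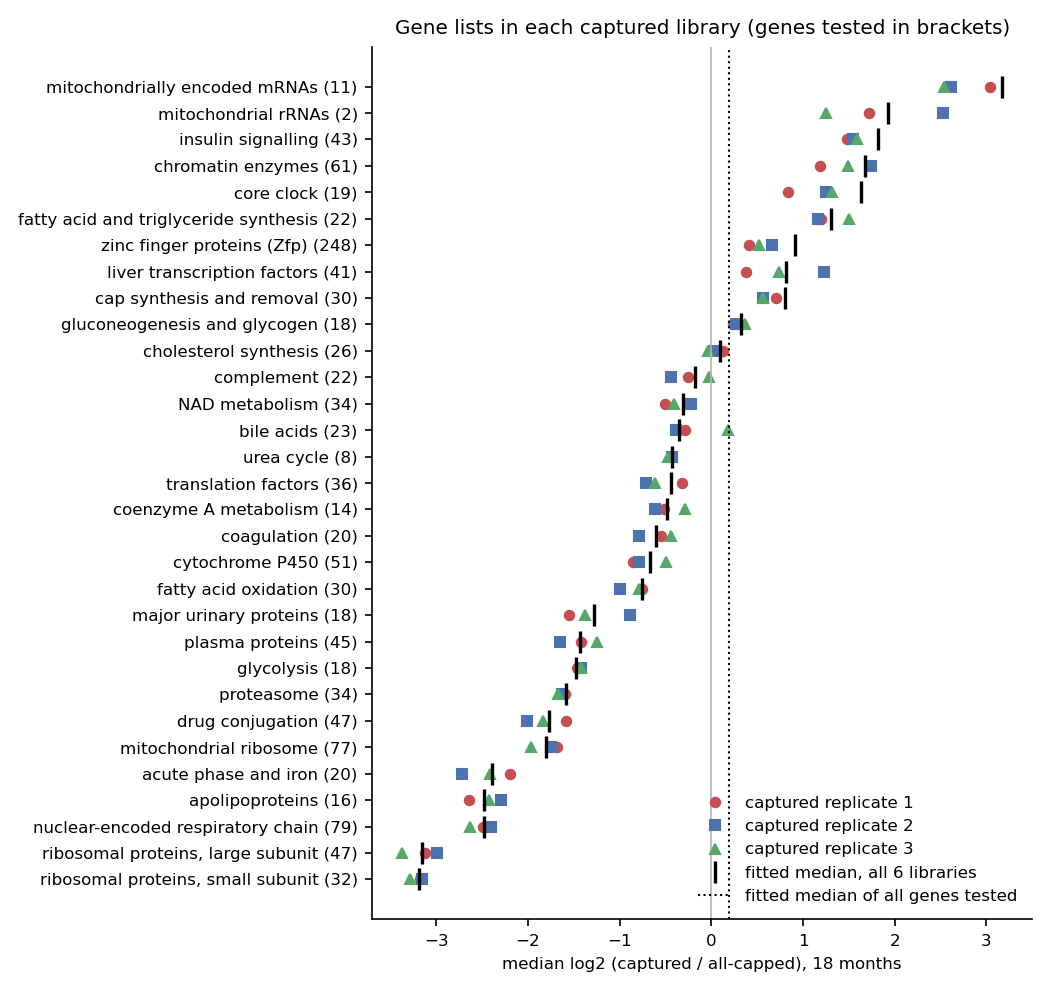
Median log2 ratio of captured to all-capped normalized CPM in each gene list, with 1 symbol per captured library (each against the mean of the 3 all-capped libraries) and a bar for the median of the fitted fold changes. Among the lists plotted, mitochondrially encoded mRNAs sit at the top with a fitted median of 3.17 and both ribosomal protein lists at the bottom with -3.16 and -3.19. The dotted line is the median of all genes, 0.19.

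The 12 genes with the largest increases were Tmem170b, Irs1, Slc5a3, Alg11, Gtf2a1, Tug1, Calcrl, Zfp266, Ado, Ltbp1, Tspan12 and Zhx3, with log2 fold changes from 6.27 down to 4.27. Tmem170b, which encodes a transmembrane protein, measured 1.27, 0.648 and 1.24 normalized CPM in the all-capped libraries and 126, 56.8 and 65.9 in the captured ones. Its log2 fold change was 6.27 ± 0.52 (SE, edgeR adjusted p = 1.03e-08). Irs1, the docking protein that carries the signal of the insulin receptor, measured 0.282, 0.0809 and 0.207 against 20.2, 8.04 and 14.02, a log2 fold change of 6.11 ± 0.67 (edgeR adjusted p = 3.47e-07). At most 4 reads of Irs1 were counted in an all-capped library, so its denominator is poorly fixed. Tspan12, a tetraspanin of Wnt receptor complexes in vessels, had the highest captured value of the 12, with 2500, 1116 and 1798 normalized CPM against 105, 70.5 and 104. The long noncoding RNA Tug1 measured 207, 92.3 and 109 in captured libraries and 6.05, 5.75 and 7.26 in all-capped ones.

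As the rule for naming them required, in each of these 12 genes the lowest captured library lay above the highest all-capped one. The shallow captured replicate 1 held the highest captured value in 11 of the 12, and captured replicate 2 the lowest in 11. That order was not general: over all 4365 higher genes, captured replicates 1, 2 and 3 were the highest in 1306, 1592 and 1467. Without captured replicate 1 all 12 were still called, with log2 fold changes between 3.97 and 5.84.

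The 12 genes with the largest decreases were Mrps34, Mt1, Hamp2, Cyp2d12, Crip1, Sertad1, Snhg8, Rpl23a, Rps27, Hbb-bt, Rps21 and Dbi, with log2 fold changes from -4.97 to -4.46. They include 3 cytosolic ribosomal proteins and the mitochondrial ribosomal protein Mrps34, which measured 83.2, 90.7 and 79.0 normalized CPM in all-capped libraries and 2.32, 2.999 and 2.63 in captured ones (log2 fold change -4.97 ± 0.24, edgeR adjusted p = 3.54e-11). Mt1, the metal-binding metallothionein 1, measured 284, 342 and 207 against 8.92, 9.25 and 8.95. Dbi, the acyl-CoA-binding protein, measured 3111, 3925 and 2670 against 151, 163 and 129, a log2 fold change of -4.46 ± 0.23 (edgeR adjusted p = 6.30e-11). Hbb-bt, a beta globin of red cells, measured 217, 78.7 and 151 against 7.997, 4.27 and 6.68. The groups did not overlap in any of the 12, as the same rule required, and without captured replicate 1 all remained called, with log2 fold changes between -4.99 and -4.43.

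**Figure D2:**
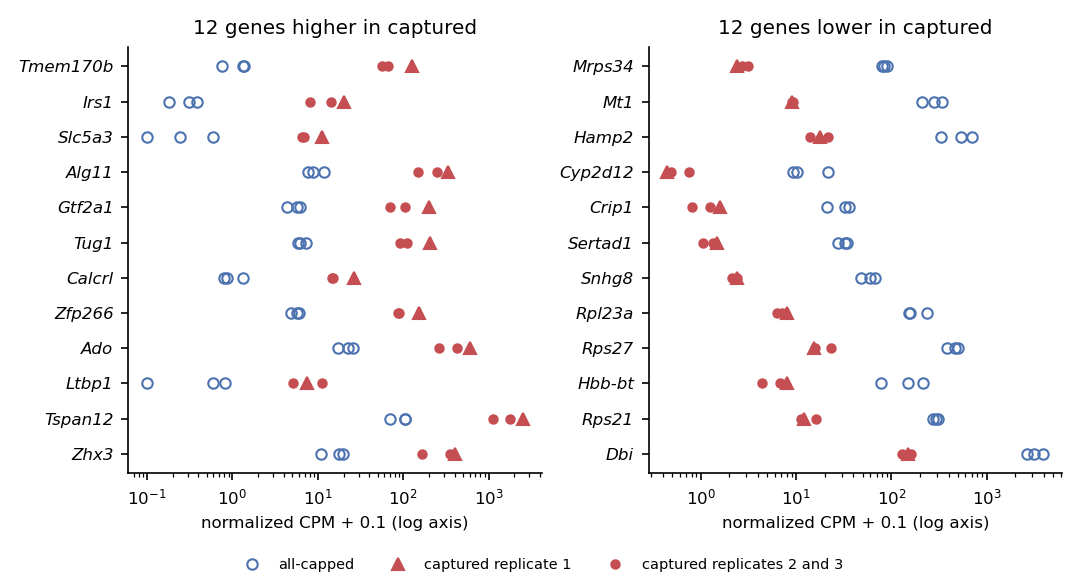
Normalized CPM (plus 0.1, log axis) of the 12 genes with the largest increases and the 12 with the largest decreases in each of the 6 libraries at 18 months. Open circles are all-capped libraries, filled symbols captured ones, and the triangle is the shallow captured replicate 1. The filled and open symbols do not overlap in any of the 24 genes.

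Because NAD can only take the place of an A at the first position of a transcript, the annotated start of these genes is shown. RefSeq promoter sequences (GRCm38.p6, which is not the build the reads were aligned to) gave a single usable start for 16 of the 24 genes. Of these 16, 3 start with A, 6 with C, 4 with G and 3 with T. A choice of 8 follows, each with 30 bases before the start and 10 from it, 5′ to 3′ on the gene's strand, the first transcribed base in capitals. The first 4 belong to genes higher in captured RNA, at chr13:41605852-41605891 (+), chr1:82291430-82291469 (-), chr11:3648805-3648844 (-) and chr9:20521410-20521449 (-). The last 4 belong to lower genes, at chr7:30924172-30924211 (-), chr3:90213639-90213678 (-), chr3:123508327-123508366 (-) and chr7:103813914-103813953 (-).
Tmem170b: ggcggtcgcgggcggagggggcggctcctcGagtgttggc
Irs1: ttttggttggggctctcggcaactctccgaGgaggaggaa
Tug1: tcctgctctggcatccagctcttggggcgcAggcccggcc
Zfp266: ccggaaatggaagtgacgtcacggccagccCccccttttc
Hamp2: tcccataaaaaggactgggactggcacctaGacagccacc
Rps27: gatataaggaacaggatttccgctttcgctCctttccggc
Snhg8: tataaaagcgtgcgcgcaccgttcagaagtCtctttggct
Hbb-bt: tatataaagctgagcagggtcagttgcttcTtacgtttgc

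Rps27 and Snhg8 start with a C followed by 4 pyrimidines, the pattern of translation-machinery genes, and so does Zfp266 on the higher side. Snhg8 and Hbb-bt hold the letters TATAAA, searched on the gene's strand in the 50 bases before the start. Annotated starts are single positions, while a promoter often starts RNA at several, and no reads bear on the first base here.

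Over the 7746 tested genes with 1 annotated start, the first base went with small differences in median only. The median log2 fold change was -0.07 in 2211 genes starting with A, 0.08 in 1193 with C, 0.24 in 3616 with G and 0.04 in 726 with T, against 0.11 in all of them. Genes with A at the start were called higher in 29.9% and lower in 34.3%. The C and pyrimidine run was present in 193 of these genes, with a median of -0.21, and of 0.09 in the 181 left without ribosomal protein genes. TATAAA was present in 153 of them, with a median of -0.45 against 0.12 in the genes without it. Among all single promoters, tested or not, 2.47% hold the C and pyrimidine run and 3.14% hold TATAAA. These differences are small beside the spread of a class, where the middle 50% of genes starting with A lay between -1.45 and 1.39.

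The mitochondrial genome encodes a few subunits of the respiratory chain together with the rRNAs and tRNAs to translate them. Its transcripts took 0.861%, 1.01% and 0.796% of the mouse counts in all-capped libraries and 10.3%, 10.7% and 8.85% in captured ones. The difference between the means was 9.04 percentage points, and the exact two-sided permutation test gave p = 0.1, the smallest that 3 against 3 libraries allow. All 11 mitochondrial mRNAs tested of 13 were higher, with a median log2 fold change of 3.17 and a range of 1.89 to 4.01. Both rRNAs and 5 of 9 tRNAs tested were also higher, and none of the 22 was lower.

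Among the mRNAs, mt-Cytb of complex III measured 902, 922 and 635 normalized CPM in all-capped libraries and 14690, 10139 and 9614 in captured ones (log2 fold change 3.81 ± 0.24, edgeR adjusted p = 3.87e-10). The complex I subunit mt-Nd1 measured 1138, 1458 and 982 against 11461, 10877 and 9762, and mt-Nd5 had the largest change, 4.01 ± 0.70 (SE). The complex IV subunit mt-Co1 had the smallest, 1.89 ± 0.26, with 6906, 8619 and 17112 in captured libraries against 3159, 2670 and 2996. For every one of the 11 mRNAs the captured libraries lay above the all-capped ones, as they did in 4151 of all 4365 genes called higher. Counts of mt-Co2, mt-Co3, mt-Atp6 and mt-Nd3 reached at most 9.85 normalized CPM in the 6 libraries of 18 months. Nuclear copies of mitochondrial DNA can share their reads, so these 4 levels are uncertain. The 12S rRNA mt-Rnr1 and the 16S rRNA mt-Rnr2 had log2 fold changes of 2.15 and 1.72.

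Messages for the cytosolic ribosome lay on the opposite side. Of 79 ribosomal protein genes tested, 76 were lower and none was higher, with a median log2 fold change of -3.16. Their summed share of mouse counts was 3.01% ± 0.375 (SD, n = 3) in all-capped and 0.644% ± 0.082 (SD, n = 3) in captured libraries. Large and small subunits had nearly the same median, -3.16 in 47 genes and -3.19 in 32. Rplp0, the stalk protein of the large subunit, measured 1652, 1571 and 1570 normalized CPM against 109, 109 and 111 (log2 fold change -3.87 ± 0.16, edgeR adjusted p = 1.96e-11). Rps2 measured 1566, 2070 and 1658 against 135, 138 and 136. In both the replicates of a group differed far less than the groups. The 3 not called, picked out after their values were seen, were Rpl5 (-0.29 ± 0.23), Rps10 (-0.71 ± 0.79) and Rpl24 (1.62 ± 1.05). Ribosomal protein genes have many processed pseudogenes of near-identical sequence, which can take part of their reads.

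Among translation factors the picture was mixed, with 17 of 36 lower and 7 higher (median -0.44). Eef1a1, which brings tRNAs to the ribosome, measured 6358, 4326 and 6417 normalized CPM against 1787, 943 and 1498 and was lower by a log2 fold change of -2.02. The large initiation scaffolds moved the other way: Eif4g1 rose to 149, 149 and 156 from 28.9, 32.0 and 42.5, and Eif4g2 had a log2 fold change of 2.75 ± 0.25. Of 13 hosts of small nucleolar RNAs 8 were lower, among them Gas5 at -3.29 ± 0.42 and Snhg8 at -4.72 ± 0.26. Also in the list of factors, Tpt1, a growth-related protein encoded by a pyrimidine-start message, measured 2063, 2357 and 1864 against 347, 280 and 275.

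Nuclear genes of the respiratory chain and ATP synthase went down in captured RNA while the mitochondrial genes of the same complexes went up. Of 79 tested, 74 were lower and 2 were higher, with a median of -2.48. Lower genes made up 35 of 36 in complex I, 2 of 4 in complex II, 10 of 10 in complex III with cytochrome c, 12 of 12 in complex IV and 15 of 17 in ATP synthase. The complex IV subunit Cox6a1 measured 2841, 3175 and 2388 normalized CPM against 182, 165 and 157, a log2 fold change of -4.06 ± 0.19 (edgeR adjusted p = 3.27e-11). Atp5g1, a subunit of the ring of ATP synthase, measured 1121, 1390 and 982 against 84.7, 87.4 and 81.9. The 2 higher genes each encode the largest subunit of a complex. Sdha of complex II measured 168, 145 and 162 against 90.3, 67.1 and 81.6 (log2 fold change 0.99 ± 0.19), and Ndufs1 of complex I measured 35.8, 28.8 and 34.5 against 19.6, 19.8 and 19.9. The membrane anchors of complex II, Sdhc and Sdhd, were lower by log2 fold changes of -2.39 and -2.40.

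The mitochondrial ribosome and the proteasome followed the same direction. Of 77 nuclear-encoded mitochondrial ribosomal proteins 69 were lower and none was higher (median -1.80). Mrpl12, a large subunit protein, measured 464, 464 and 420 normalized CPM against 83.5, 87.8 and 74.7. Of 34 proteasome subunits 29 were lower (median -1.58), the catalytic immunoproteasome subunits Psmb9 and Psmb10 most, at -3.37 ± 0.27 and -3.41 ± 0.22. Psmd1, the single one called higher at 0.48 ± 0.19, lost its call whenever any 1 of the 6 libraries was left out, with edgeR adjusted p up to 0.0962.

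The secreted products of hepatocytes dominated the all-capped libraries and lost ground in the captured ones. Together 123 such genes took 35.5% ± 0.656 (SD, n = 3) of the mouse counts in all-capped RNA and 21.6% ± 0.2 (SD, n = 3) in captured RNA, and 80 were lower and 24 higher, with a median log2 fold change of -1.43. Albumin (Alb) had the highest mean of any gene in both kinds of library, with 64359, 49782 and 55694 normalized CPM against 44519, 34523 and 40315. Its log2 fold change of -0.51 ± 0.16 (edgeR adjusted p = 0.00949) became -0.42 with adjusted p = 0.0549 when all-capped replicate 1 was left out. Ttr, the carrier of thyroid hormone and retinol, measured 28316, 31965 and 24217 against 2158, 2874 and 2703, a log2 fold change of -3.45 ± 0.25 (adjusted p = 1.99e-09).

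Apolipoproteins, the protein part of lipoproteins, took 11.4% ± 1.42 (SD, n = 3) of the mouse counts in all-capped RNA and 4.11% ± 1.15 (SD, n = 3) in captured RNA. Of 16, 14 were lower, 1 was higher and 1 was not called, with a median of -2.48. Apoa1, the main protein of high-density lipoprotein, measured 21545, 22009 and 19301 normalized CPM against 1711, 1436 and 1654 (log2 fold change -3.71 ± 0.17, edgeR adjusted p = 3.27e-11). Apoc3, an inhibitor of triglyceride clearance, measured 7303, 11509 and 7233 against 543, 857 and 644. Apob, the very large structural protein of low-density lipoprotein, was the exception, with 27.7, 60.7 and 37.5 in all-capped and 163, 232 and 151 in captured libraries (log2 fold change 2.12 ± 0.25, adjusted p = 8.20e-07). The captured libraries lay below the all-capped ones in Apoa1 and Apoc3 and above them in Apob.

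Other plasma proteins divided in a like way. Of 45 carriers and protease inhibitors 31 were lower and 7 higher (median -1.43), the higher ones led by the large protease inhibitors Pzp (1367, 911 and 1542 against 253, 215 and 247) and Mug1 (1205, 664 and 1637 against 297, 239 and 398). Complement held 8 higher and 10 lower of 22 (median -0.18), or 36.4% and 45.5%, against 33.3% and 30.2% of all genes. The thioester protein C3 measured 477, 482 and 618 in all-capped libraries and 2410, 1925 and 3586 in captured ones, and Hc, the mouse C5, had a log2 fold change of 2.42 ± 0.18. Lower were Masp2, a protease of the lectin pathway, at -3.45 ± 0.18, and the factor B gene Cfb at -3.55 ± 0.40. Of 20 coagulation genes 6 were higher and 10 lower. The prothrombin gene F2 measured 3835, 3098 and 4106 against 658, 675 and 831. The prekallikrein gene Klkb1 measured 8.80, 10.0 and 11.1 against 51.6, 68.8 and 50.4.

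Acute phase and iron proteins were lower in 15 of 20 (median -2.39). The ferritin chains Ftl1 and Fth1 had log2 fold changes of -2.25 ± 0.25 and -2.42 ± 0.17. Hamp2, the gene of hepcidin 2 and separate from Hamp, measured 542, 694 and 333 normalized CPM against 17.6, 21.6 and 14.02. The transferrin receptor Tfrc rose instead, from 2.11, 4.78 and 3.59 to 19.9, 15.3 and 11.3. Of 18 major urinary proteins 11 were lower and none higher (median -1.28). These genes are near-identical copies whose reads the counting could split, so single members are not described.

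Intermediary metabolism did not move as 1 block. In the urea cycle 3 of 8 genes were higher and 4 lower. Cps1, the mitochondrial enzyme that commits ammonia to the cycle, measured 111, 138 and 154 normalized CPM in all-capped and 774, 963 and 1188 in captured libraries (log2 fold change 2.86 ± 0.19, edgeR adjusted p = 7.59e-10). The later enzymes Asl and Arg1 went the other way, Asl with 1140, 1111 and 1094 against 216, 273 and 268, and Arg1 with a log2 fold change of -1.77 ± 0.18. The ornithine carrier Slc25a15 was higher, at 1.29 ± 0.20, and Ass1 was not called, at 0.12 ± 0.21.

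Glycolysis and fructose use were lower in 15 of 18 genes (median -1.48), with Tpi1 at -2.93 ± 0.23 and the fructokinase gene Khk at -2.47 ± 0.16. Their 2 higher genes were Pfkfb3, which makes the activator of phosphofructokinase, at 2.7 ± 0.49, and the glucose transporter Slc2a2 at 0.47 ± 0.17. Slc2a2 lost its call in 4 of the fits that left out 1 library, with adjusted p up to 0.101. Gluconeogenesis and glycogen genes were higher in 7 and lower in 3 of 18 (median 0.32). Fbp1, a key gluconeogenic enzyme, measured 4559, 3062 and 3684 against 539, 414 and 598.

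Fatty acid and triglyceride synthesis stood above the background of 33.3% higher, with 15 of 22 genes higher and 2 lower (median 1.30). Scd1, the desaturase that makes oleate, had the second highest mean of captured RNA, in CPM that are not corrected for length. It measured 3602, 3121 and 4138 normalized CPM in all-capped libraries and 22064, 17210 and 29527 in captured ones, a log2 fold change of 2.66 ± 0.33 (edgeR adjusted p = 1.49e-06). Scd1 alone went from 0.294% ± 0.0482 to 3.20% ± 0.762 (SD, n = 3) of the mouse counts, and the whole list from 0.601% ± 0.0636 to 4.37% ± 0.796. Gpam, which adds the first acyl chain to glycerol phosphate, measured 64.7, 57.5 and 48.7 against 365, 310 and 390. The 2 lower genes were Thrsp, a regulator of lipogenesis, at -1.71 ± 0.26, and the lipase gene Pnpla3 at -2.25 ± 0.66.

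Breakdown of fatty acids was lower in 19 of 30 genes and higher in 5 (median -0.75). Cpt1a, the gate of entry of fatty acids into mitochondria, measured 71.1, 34.3 and 70.6 normalized CPM against 162, 125 and 173. Cholesterol genes were higher in 11 and lower in 7 of 26 (median 0.09). Insig1, which holds the sterol sensor in the endoplasmic reticulum, measured 308, 313 and 238 against 2049, 1829 and 1320, whereas the synthesis enzyme Pmvk had a log2 fold change of -2.54 ± 0.22. Bile acid genes were higher in 7 and lower in 9 of 23, with the export pump Abcb11 at 1.68 ± 0.20 and the sterol hydroxylase Cyp8b1 at -2.01 ± 0.17. The cholesterol and gluconeogenesis medians lay so close to that of all genes that their side of it changed under 2 and 1 of 16 alternative settings.

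Drug-metabolising enzymes were mostly lower. Of 51 cytochrome P450 genes 28 were lower and 4 higher (median -0.67), and of 47 conjugating enzymes 34 were lower and 5 higher (median -1.77). The 4 higher P450 genes became 2 without all-capped replicate 2 or captured replicate 1, and the 5 higher conjugating enzymes 3 without all-capped replicate 3 or captured replicate 1. Cyp2d26 measured 4810, 4523 and 5185 normalized CPM against 620, 712 and 965, while the ethanol-inducible Cyp2e1, with 8062, 6714 and 10146 against 6800, 4193 and 9203, overlapped between the groups and was not called. The microsomal glutathione transferase Mgst1 measured 17820, 17879 and 13452 against 2453, 2986 and 2055. Of the glucuronosyltransferases, 3 of 1 family were higher, Ugt2b1 with 523, 294 and 451 against 81.5, 69.5 and 97.7, together with Ugt2b34 and Ugt2b35 at 1.99 ± 0.25 and 2.23 ± 0.24. The P450 and Ugt2b families hold close copies, so single members are less certain than the counts.

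Genes of insulin signalling and chromatin lay mostly on the captured side. Insulin and growth factor signalling was higher in 30 of 43 genes and lower in 2 (median 1.82), from Irs1 to the kinase subunit Pik3cb, with 0.634, 0.971 and 0.691 normalized CPM against 7.88, 7.78 and 7.52. The glucagon receptor Gcgr was 1 of the 2 lower genes, at -0.74 ± 0.19, and 1 lower gene was left without captured replicate 1. Chromatin enzymes were higher in 47 of 61 and lower in 1 (median 1.68). The histone deacetylase Hdac4 measured 6.83, 6.64 and 9.61 against 87.0, 60.9 and 70.4 (log2 fold change 3.24 ± 0.22, edgeR adjusted p = 1.11e-09). Smarca4, the 1 lower gene at -0.53 ± 0.18, lost its call without all-capped replicate 1 or captured replicate 2 (adjusted p up to 0.0693).

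Liver transcription factors were higher in 20 of 41 and lower in 9 (median 0.82). Hnf4a, a master regulator of the hepatocyte, measured 42.4, 41.4 and 34.6 normalized CPM against 217, 207 and 285. Tcf7l2, a factor of Wnt signalling, measured 43.0, 59.2 and 67.3 against 350, 362 and 367, and the thyroid hormone receptor Thrb had a log2 fold change of 2.97 ± 0.23. Lower were the xenobiotic receptor Nr1i3, with 53.0, 52.1 and 52.1 against 4.75, 2.999 and 4.89, and Nr0b2, which represses bile acid synthesis, at -2.09 ± 0.36. Zinc finger genes named Zfp, most of them presumed transcription factors, were higher in 85 and lower in 27 of 248 (median 0.91). Their share of higher genes, 34.3%, was near the 33.3% of all genes, and their share of lower genes was 10.9% against 30.2%. Among 19 core clock genes 13 were higher and 3 lower (median 1.63), with the nuclear receptor Nr1d2 at 2.74 ± 0.40 and the clock output factor Dbp at -3.45 ± 0.95. Dbp measured at most 4.86 normalized CPM in the 6 libraries of 18 months. The 3 lower calls of the clock list fell to 1 without all-capped replicate 3 or captured replicate 2.

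Enzymes that make and use NAD, the metabolite of the NAD cap, gave 12 higher and 14 lower of 34 (median -0.30). These are 35.3% and 41.2%, against 33.3% and 30.2% of all genes. In the synthesis from tryptophan, Haao measured 1648, 1636 and 1566 normalized CPM against 198.7, 249.7 and 254.99, and Qprt had a log2 fold change of -2.34 ± 0.18. In the salvage route, the rate-limiting Nampt measured 11.1, 6.56 and 4.63 against 28.3, 29.4 and 25.4. The kinases that turn NAD into NADP were higher, Nadk at 1.59 ± 0.21 and the mitochondrial Nadk2 at 3.13 ± 0.35. Among the NAD-dependent sirtuins Sirt1 (2.81 ± 0.77) and Sirt6 (2.07 ± 0.29) were higher, and Sirt2, Sirt3, Sirt4, Sirt5 and Sirt7 were lower, from -0.79 to -3.04. Coenzyme A genes gave 3 higher and 7 lower of 14. Of the pantothenate kinases, at the first step, Pank2 and Pank3 were higher by log2 fold changes of 2.24 ± 0.36 and 3.04 ± 0.41. Pank1 and Pank4 were not called. Pank1 was the most abundant of these kinases in all-capped RNA at 2 months, with a mean of 161 normalized CPM. The means of Pank2, Pank3 and Pank4 there were 1.72, 2.61 and 6.08. The later enzymes Ppcs, Ppcdc and Coasy were lower by -1.87, -1.49 and -1.15.

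Genes for making and removing caps gave 13 higher and 8 lower of 30 (median 0.80). The deNADding enzyme gene Dxo measured 35.6, 36.5 and 38.8 normalized CPM in all-capped libraries and 9.27, 10.3 and 12.8 in captured ones (log2 fold change -1.77 ± 0.20, edgeR adjusted p = 4.47e-07). Nudt12, a peroxisomal Nudix hydrolase that removes NAD caps, went the other way with 3.59, 2.11 and 2.35 against 14.3, 15.7 and 12.4. Nudt16 was lower at -1.66 ± 0.32 and the scavenger Dcps at -1.75 ± 0.29. Genes of decapping cofactors were on both sides. Ddx6, Edc3 and Dcp1a were higher by 2.07, 1.51 and 3.17, and Edc4 was also higher. Lsm1 and Pnrc1 were lower, and Dcp1b and Pnrc2 were not called. For the catalytic Dcp2 the log2 fold change of 0.81 ± 0.43 was not called (edgeR adjusted p = 0.108).

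Markers of other liver cells were checked because whole tissue was used. Hepatocyte markers were abundant in every library, with 9.98% ± 0.425 (SD, n = 3) of the mouse counts in all-capped RNA and 8.07% ± 0.62 (SD, n = 3) in captured RNA, and none was at 0. Red cell markers were lower in all 5 tested of 7 (median -3.65), with Hba-a1 at 839, 373 and 660 normalized CPM against 67.9, 21.3 and 43.9. Kupffer cell markers were lower in 10 and higher in 1 of 15, with the complement gene C1qb at -2.50 ± 0.29. The higher call, of Adgre1, was lost without all-capped replicate 2 or 3 or captured replicate 1 (edgeR adjusted p up to 0.0806). Without all-capped replicate 1, 2 markers were higher. Lymphocyte markers were lower in 6 of 11 tested and higher in none, with Cd79b at -3.21 ± 0.43.

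Endothelial markers were higher in 7 and lower in 3 of 15, or lower in 5 without all-capped replicate 2. The nuclease gene Dnase1l3 measured 443, 183 and 364 in all-capped and 3038, 1053 and 2288 in captured libraries. It went from 0.0267% ± 0.0107 to 0.294% ± 0.128 (SD, n = 3) of the mouse counts, and the whole list from 0.0515% ± 0.019 to 0.332% ± 0.13. Stellate cell markers were higher in 8 and lower in 4 of 15, with Reln at 2.89 ± 0.37 and Dcn at -1.59 ± 0.24. The 8 higher calls became 4 without all-capped replicate 1 or 3, 3 without captured replicate 2 and 5 without captured replicate 3. Bile duct markers were lower in 3 and higher in 1 of 8, and the higher call was lost in 5 of the 6 fits that left out 1 library, all but the fit without captured replicate 3. Markers of 1 cell type thus lay on both sides in several lists, and the part of cell makeup in the other results was not tested.

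Long noncoding RNAs known mainly from the nucleus were few: of 6 tested 2 were higher and 1 lower. The 2 higher calls became 0 without all-capped replicate 1 or 3 and 1 without captured replicate 2 or 3. Malat1 measured 23.9, 86.9 and 54.3 normalized CPM against 4.52, 17.1 and 5.19 (log2 fold change -2.60 ± 0.49), and Neat1, with 2.61, 23.2 and 9.40 against 5.68, 71.5 and 21.8, was not called. Of 99 genes with a pseudogene symbol 61 were lower and 7 higher (median -2.15), yet their summed share of mouse counts went from 0.147% ± 0.00451 to 0.918% ± 0.128. Tmem250-ps, singled out after its values were seen, alone went from 0.0795% ± 0.0113 to 0.886% ± 0.131 (SD, n = 3). Reads of a pseudogene and its parent gene can be hard to tell apart. Predicted genes named Gm were higher in 158 and lower in 252 of 749. Histone genes were higher in 3 and lower in 13 of 23, solute carriers higher in 96 and lower in 56 of 245, and immediate early genes higher in 6 (3 without captured replicate 2) and lower in 5 of 23.

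Genes with many reads in all-capped RNA were lower in captured RNA more often than genes with few. They were put in 5 equal classes by their all-capped CPM at 2 months, not corrected for length, in libraries that do not enter the 18 month contrast. From the lowest to the highest class, the median log2 fold change was 1.31, 0.75, 0.56, -0.15 and -1.23. In the top class, at 35.0 normalized CPM and above, 14.7% of genes were higher and 68.0% lower. In the lowest class, up to 0.875, 32.9% were higher and 7.35% lower. A gene with few reads passes the filter on counts partly through the group in which it is high, so the lowest class is tilted towards genes high in captured RNA.

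**Figure D3:**
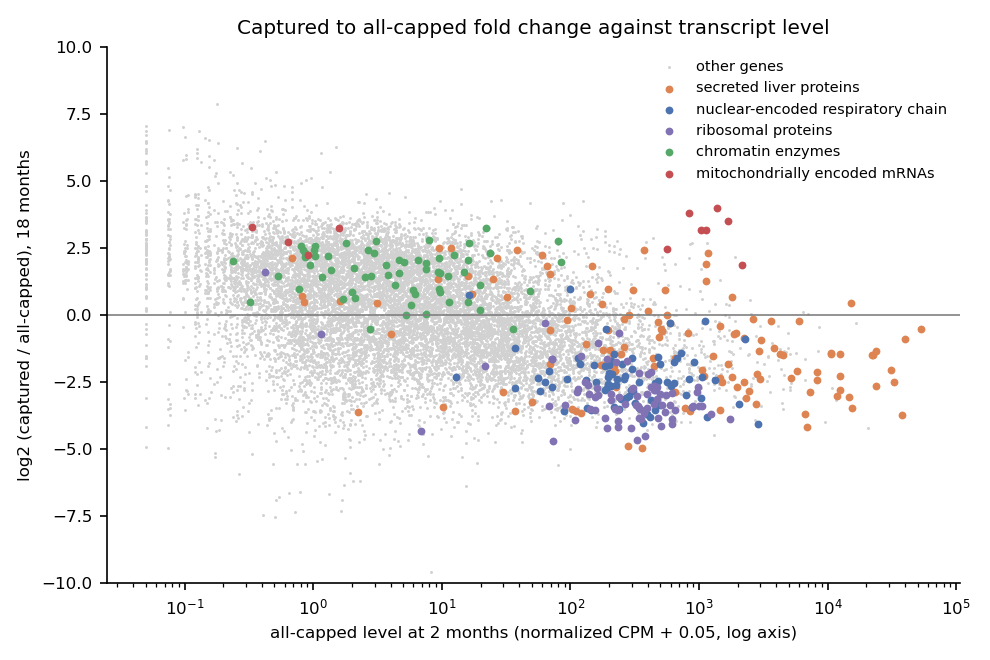
Log2 fold change at 18 months (vertical) of every tested gene against its all-capped level at 2 months (horizontal, normalized CPM plus 0.05, log axis), with 5 lists in colour. Genes of the highest class had a median of -1.23. Ribosomal protein genes (median -3.16) and mitochondrially encoded mRNAs (median 3.17) fall on opposite sides. The mitochondrial mRNAs form a low part, from mt-Atp6 (0.283) to mt-Nd3 (1.55), and a high part, from mt-Nd6 (563) to mt-Co1 (2156). Ribosomal protein genes such as Rpl23a (73.2) and Rps27 (331) lie between these parts. Chromatin enzymes lie mostly at lower levels than ribosomal protein genes.

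Some genes of the top class went against this order. In all-capped RNA mt-Nd1, mt-Cytb, Scd1 and C3 were all above 35.0 normalized CPM in every library, and all were higher in captured RNA. What part the read level has in the other differences was not tested.

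The spike-ins gave a second scale. These added RNAs hold stated NAD-capped shares, and their share of mouse counts in a captured library over that in all-capped libraries was 0.121 ± 0.0213 (SD, n = 3) at 0%, 0.234 ± 0.0493 at 1%, 0.379 ± 0.107 at 5% and 1.15 ± 0.562 at 20%. The 20% spike-in was thinly counted, with 204, 689 and 350 counts in captured libraries, and its ratio ranged from 0.785 to 1.80. The same ratio could be formed for 13080 genes. It lay above that of the 20% spike-in for 63.9% of them by the mean, and for 67.3%, 52.2% and 71.2% in captured replicates 1, 2 and 3. It lay below that of the 0% spike-in for 1.41% by the mean, and for 4.63%, 3.0% and 2.35% in captured replicates 1, 2 and 3.

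All 11 mitochondrial mRNAs were above the 20% spike-in in each captured library, with mt-Nd1 at 15.6 ± 1.54 (SD, n = 3). So were 58 of 61 chromatin enzymes and 41 of 43 genes of insulin signalling, against 6413 of the 13080 genes with a ratio. By the mean ratio, 14 of 79 ribosomal protein genes were below the 0% spike-in and 37 between 0% and 1%. A further 14 were between 1% and 5%, 12 between 5% and 20%, and 2 above. The numbers in the same place in all 3 captured libraries were 8, 22, 5, 8 and 1. The nuclear-encoded respiratory chain gave 2, 20, 31, 21 and 5 by the mean in the same order, and 1, 9, 10, 13 and 2 in all 3 libraries. Alb had a ratio of 1.21 ± 0.0938, near the 20% spike-in, Apoa1 of 0.132 ± 0.0051, near the 0% one, and Mt1 of 0.0567 ± 0.00429, below the 0% one in all 3 libraries. A ratio above the highest spike-in lies outside the range the spike-ins cover, and no NAD-capped share is derived from it.

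**Figure D4:**
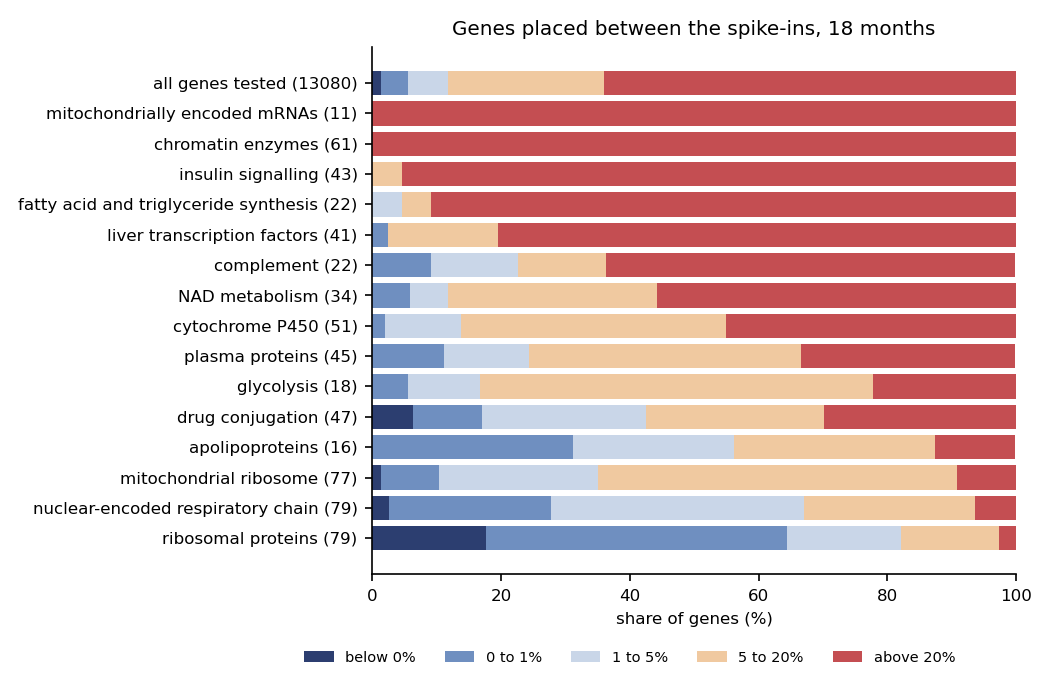
Share of genes (horizontal, %) of each list whose mean captured to all-capped ratio fell below, between or above the ratios of the 0%, 1%, 5% and 20% spike-ins, with the number of genes in brackets. All 11 mitochondrially encoded mRNAs and all 61 chromatin enzymes lie above the 20% spike-in by the mean, against 63.9% of all genes and 2 of 79 ribosomal protein genes.

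The pattern at 18 months was largely that at 2 months, in libraries with no sample in common. The same 3634 genes were higher and the same 3432 lower at both ages, 8 were called in opposite directions, and across the 13124 genes the rank correlation of the fold changes was 0.916, a description over genes that share their libraries. List medians at 2 months were 2.82 for mitochondrial mRNAs, -2.86 for ribosomal proteins, -2.27 for the nuclear-encoded respiratory chain and 1.57 for chromatin enzymes. The test of the difference between ages called 0 genes more positive and 2 more negative at 18 months, 0.0152% of those tested (edgeR interaction, adjusted p under 0.05). Without adjustment, 318 and 356 genes had p under 0.05. With the replicate number as a block the difference was called for 31 and 73 genes, and by DESeq2 for 2 and 26.

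Both genes called by the fit without a block were higher in captured RNA at 2 months and lower at 18 months. Oaf, which encodes a secreted protein, measured 493, 535 and 630 normalized CPM in all-capped and 58.3, 79.2 and 90.2 in captured libraries at 18 months, and 43.1, 51.3 and 123 against 105, 148 and 159 at 2 months. Its log2 fold change was -2.86 at 18 months and 0.92 at 2 months, a difference of -3.79 ± 0.43 (SE, edgeR adjusted p = 0.000924). Rac1, a small GTPase of the cytoskeleton, measured 97.3, 108 and 139 against 75.3, 54.4 and 83.4 at 18 months, and 21.4, 11.3 and 26.9 against 74.3, 74.7 and 81.6 at 2 months. The difference was -2.64 ± 0.36 (adjusted p = 0.00592). In both genes the all-capped level was the one that differed most between the ages, from a mean of 72.4 to 553 in Oaf and of 19.9 to 115 in Rac1, while captured Rac1 had means of 76.9 and 71.0. The lower call of Rac1 at 18 months (log2 fold change -0.69, adjusted p = 0.0224) was lost without all-capped replicate 3 or captured replicate 2, with adjusted p up to 0.109. Neither gene belongs to a list described above. With the replicate block the difference was called for some list genes as well, among them mt-Co1 (-1.36, edgeR adjusted p = 0.00225), mt-Cytb (0.87, adjusted p = 0.0232) and Rps14 (-1.49, adjusted p = 0.000856).

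**Figure D5:**
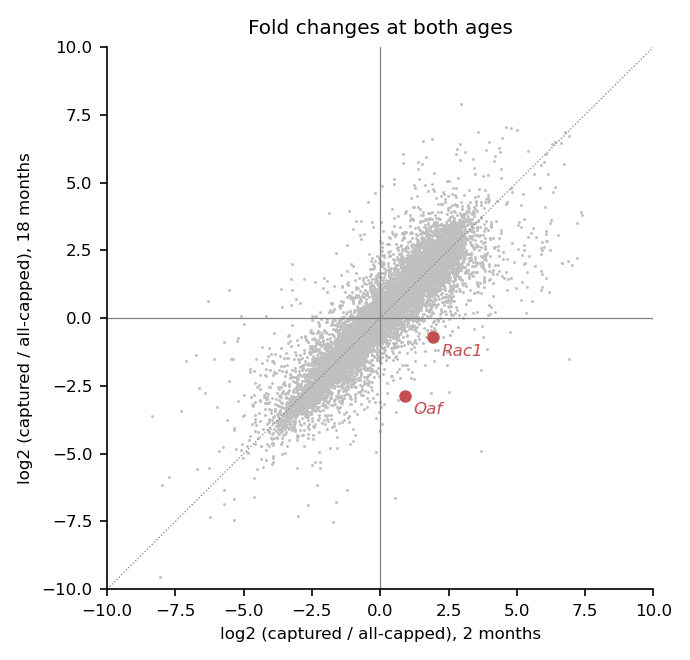
Log2 fold change of captured against all-capped RNA at 18 months (vertical) and at 2 months (horizontal) for the 13124 genes tested, 1 grey point per gene and a dotted line where both are equal. Oaf and Rac1, in red, are the 2 genes with a called difference between ages in the fit without a replicate block. They lie below the line by 3.79 and 2.64.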

How the data were processed

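Gene counts were deposited by the authors as whole-number counts per gene, not normalized. Per the submitters' processing notes, reads were handled with Trim Galore 0.6.6, STAR 2.7.6a, featureCounts 2.0.1 and Salmon on the GRCm39 and BDGP6 builds. The annotation version and use of strand are not given in the sources used here, so overlapping and antisense genes may share reads. Groups and replicate numbers came from the labels, and 0 columns were left unmapped. Symbols matched 52083 of 55416 mouse genes.

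Only mouse genes entered the library totals and the tests. The 12 libraries of both ages were filtered with filterByExpr, scaled with TMM and fitted together in edgeR 4.0.16 (R 4.3.3; quasi-likelihood, group means, no block), with Benjamini-Hochberg adjustment over 13124 genes at 0.05. Called means past that threshold. Errors on log2 fold changes are standard errors. Counts of 12841 genes were simulated for the 18 month comparison, with 200 of them changed by 1.5 log2 units. Of these 200, 80% were recovered, and 0.0633% of unchanged genes were called. In the data far more genes were called, 4365 higher and 3968 lower. With so few changed genes, the simulation does not give the rates of recovery or of false calls in the data. Per-library ratios of lists used a prior of 0.5 CPM.

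Replicate numbers may pair libraries. At 18 months, deviations from the group means correlated at 0.255, 0.38 and 0.226 between the 2 libraries of a number. Between libraries of unlike number they correlated at most at 0.0506. The main fit left this pairing out, and the fit with a replicate block used it. The genes, lists and tests were chosen with earlier results of these data known. Named genes were the 12 largest changes each way among genes averaging 50 or more counts whose groups did not overlap, the ends and most abundant genes of each list, all mitochondrial, NAD and cap genes, and genes called between ages. A gene named outside this rule is marked or stands in a list's exceptions. Alternatives were DESeq2 1.42.0, other scalings, filters, thinning, a block and leaving out libraries. RefSeq promoters matched 7746 tested genes with 1 start.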

Additional observations from a re-analysis of the deposited data

Results flagged for a closer look

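Oaf and Rac1 stood out because the effect of capture differed between the ages by a test of the difference itself. For Oaf the log2 fold change at 18 months minus that at 2 months was -3.79, and for Rac1 it was -2.64. Both calls held in each fit that left out 1 of the 12 libraries and with the replicate block. They did not hold under every scaling. Neither gene was called more negative at 18 months with scaling to the summed spike-ins. At most 1 of them was with scaling to the spike-in without NAD caps, and likewise with scaling to fly genes. In both genes the groups of libraries did not overlap at either age except for Oaf at 2 months, where 1 all-capped library (123) lay above 1 captured library (105).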

How the results depend on the processing

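Counts of higher and lower genes stayed within 1.5 times of the main ones with DESeq2, thinning, both filters, the 6 libraries alone, the replicate block (4658 and 4229) and each library left out. They moved with scaling. Higher genes numbered 10560 with the summed spike-ins, 12123 with the 0% spike-in and 1038 with fly genes. Lower genes numbered 2408 with library size alone and 159, 16 and 6404 with those scalings. Genes more positive at 18 than at 2 months numbered 2 with DESeq2, 5 without a filter and 31 with the replicate block. More negative genes numbered 26 with DESeq2, 31 without a filter, 73 with the block, 0 with the summed spike-ins, and 1 each with the 0% spike-in and fly genes. They ranged from 2 to 12 when 1 library was left out, 12 being without all-capped replicate 3 of 2 months. The cause of these changes was not tested.

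Relative to all genes, the ribosomal protein median of -3.35 became -3.15 without a filter and ranged from -3.54 to -3.19 when 1 library was left out. That of the nuclear-encoded respiratory chain, -2.68, became -2.47 without a filter and -2.48 with 10 counts required in every library, and ranged from -2.80 to -2.56. That of secreted proteins, -1.62, became -1.36 and -1.42 under the 2 filters. The side of all genes on which a list's median lay changed under 4 of 16 settings for immediate early genes, 2 of 15 for nuclear noncoding RNAs, 2 of 16 for cholesterol and 1 of 16 each for gluconeogenesis, endothelial markers and Gm genes. Of the genes named singly, 95 of 111 higher and 143 of 150 lower ones were called in all 6 fits that left out 1 library of 18 months. Depth limits captured replicate 1 most: 3 counts there correspond to 0.469 CPM.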
